A study of Mus musculus with 3 samples.

Results

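Single-gene promoter peaks are sites of open chromatin in dopaminergic neurons (DNs) that lie at the starts of protein-coding genes on the same strand. A peak was a member when its centre lay within 1 kb of a transcript start of a protein-coding gene of the GENCODE M21 basic annotation, when all such starts within 1 kb lay on the same strand, and when it was on an autosome. Of the 55326 peaks in the list for DNs, 14826 were members, or 26.8% (95% exact binomial interval 26.4 to 27.2%). They made up 91.3% of the 16240 autosomal peaks at protein-coding starts. The other 1414 promoter peaks had starts on both strands and are called bidirectional, and 38330 autosomal peaks lay at no such start.

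The study used single-nucleus ATAC-seq (snATAC-seq) to learn which parts of the genome are open in DNs of the mouse midbrain. The nuclei came from the ventral tegmental area (VTA) of wild-type male C57Bl/6Nl mice, aged 7 weeks for DN replicate 1 and 9 weeks for DN replicate 2. Nuclei were sorted by DAPI and scatter, with no marker of a cell type. The DN cluster was chosen afterwards from the accessibility of *Th* and checked with other marker genes, so open chromatin at such genes was part of how the cells were picked. Both replicates were pooled into 1 peak list of positions without heights or counts. No value per replicate and no p-value can therefore be given, the depth behind a peak is unknown from the list, and every interval below covers counting error only. The study describes a further filter on peaks by the share of nuclei that held them, and whether the list had passed it is not stated. A gene without a peak is a gene where no peak was called, which does not show that its chromatin was closed. The third sample of the series, a bulk library of mouse embryonic stem (mES) cells, was not analysed here.

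In ATAC-seq a transposase cuts DNA that is not wrapped by nucleosomes. The start of a transcribed gene is commonly such a place, because general transcription factors, sequence-specific activators and RNA polymerase II keep a short stretch just upstream of the start free of nucleosomes. Mammalian promoters fall broadly into a pair of kinds. Most overlap a CpG island, a stretch in which the dinucleotide CpG has escaped the depletion seen elsewhere in the genome, and serve genes used in many cells. The rest are poor in CpG, more often carry a TATA box at a fixed place upstream of the start, and more often serve genes used in few cell types.

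The sequences of a few starts show what lies under these peaks. Each line gives the 120 bases just upstream of a start at which a member was centred, read 5′ to 3′ on the strand of the gene. The letters and coordinates are those of GRCm38, the assembly that mm10 is built on. Capitals mark letters that match a motif. The first set shows 4 genes that make, load or take up dopamine: *Th* (tyrosine hydroxylase, the rate-limiting enzyme), *Ddc* (the decarboxylase that makes dopamine), *Slc18a2* (the vesicular monoamine transporter) and *Slc6a3* (the dopamine transporter). Capitals in *Th* mark TGACGTCA, the cAMP response element (CRE). Capitals in *Ddc* mark a CCAAT box on the opposite strand. Capitals in *Slc18a2* mark a pair of GC boxes (GGGCGG, or CCGCCC on the opposite strand) and a CRE, and those in *Slc6a3* mark 3 GC boxes.
Th, chr7:142900015-142900134, minus strand: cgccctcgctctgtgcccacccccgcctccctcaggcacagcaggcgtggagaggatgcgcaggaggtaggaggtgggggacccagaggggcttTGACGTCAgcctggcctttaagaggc
Ddc, chr11:11890409-11890528, minus strand: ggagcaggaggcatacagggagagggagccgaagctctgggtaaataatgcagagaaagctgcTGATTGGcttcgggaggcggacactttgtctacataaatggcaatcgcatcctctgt
Slc18a2, chr19:59260776-59260895, plus strand: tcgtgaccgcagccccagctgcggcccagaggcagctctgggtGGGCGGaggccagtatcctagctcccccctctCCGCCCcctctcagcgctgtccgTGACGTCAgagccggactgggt
Slc6a3, chr13:73536627-73536746, plus strand: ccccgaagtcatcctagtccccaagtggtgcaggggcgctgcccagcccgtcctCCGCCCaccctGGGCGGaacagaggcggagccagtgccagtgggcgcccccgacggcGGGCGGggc

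The second set shows 1 start for each of 8 motifs described below, at list genes. Capitals mark only the named motif. *Hist1h1a* (a linker histone) carries a TATA box (TATAAA), *Rpl3* (a protein of the large ribosomal subunit) a GC box, and *Elavl4* (a neuronal RNA-binding protein) a CCAAT box. *Rpl37a* (large ribosomal subunit) carries an NRF1 site (GCATGCGC, here marked on the opposite strand, where it overlaps a match on the gene's own strand that runs into the lower-case letters), *Atp5d* (a subunit of ATP synthase) a CRE and *Uqcr11* (a subunit of respiratory complex III) an ETS site (CCGGAAGT). *Psmd7* (a proteasome subunit) carries a YY1 site (AAGATGGC). *Egr2* (an immediate early transcription factor) carries a CArG box. *Elavl4*, *Rpl37a* and *Egr2* were chosen for these motifs after their values were seen.
Hist1h1a, chr13:23763546-23763665, plus strand: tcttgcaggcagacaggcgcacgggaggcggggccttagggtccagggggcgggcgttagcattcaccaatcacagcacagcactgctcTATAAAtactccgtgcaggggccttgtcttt
Rpl3, chr15:80083407-80083526, minus strand: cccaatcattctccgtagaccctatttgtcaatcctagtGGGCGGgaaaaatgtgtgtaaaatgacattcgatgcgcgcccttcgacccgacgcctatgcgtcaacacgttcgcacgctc
Elavl4, chr4:110287528-110287647, minus strand: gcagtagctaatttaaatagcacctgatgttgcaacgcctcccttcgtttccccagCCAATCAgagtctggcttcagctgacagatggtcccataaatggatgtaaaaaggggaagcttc
Rpl37a, chr1:72711170-72711289, plus strand: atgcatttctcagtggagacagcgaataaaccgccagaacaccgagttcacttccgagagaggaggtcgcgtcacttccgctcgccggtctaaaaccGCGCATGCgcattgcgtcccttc
Atp5d, chr10:80141337-80141456, plus strand: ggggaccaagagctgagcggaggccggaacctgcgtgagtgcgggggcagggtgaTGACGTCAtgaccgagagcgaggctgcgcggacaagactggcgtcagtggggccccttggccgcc
Uqcr11, chr10:80406831-80406950, minus strand: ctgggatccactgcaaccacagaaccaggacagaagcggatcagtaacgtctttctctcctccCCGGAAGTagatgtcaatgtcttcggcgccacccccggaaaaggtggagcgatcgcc
Psmd7, chr8:107588465-107588584, minus strand: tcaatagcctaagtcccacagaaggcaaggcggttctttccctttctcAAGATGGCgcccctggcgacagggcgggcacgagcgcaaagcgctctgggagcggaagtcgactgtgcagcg
Egr2, chr10:67537749-67537868, plus strand: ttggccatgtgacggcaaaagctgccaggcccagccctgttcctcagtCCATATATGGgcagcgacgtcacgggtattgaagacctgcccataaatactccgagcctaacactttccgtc

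Members were centred just upstream of their nearest starts. Distances were signed along the gene, negative upstream, from the nearest start to the peak centre. Their median was -19 bp (95% interval -21 to -17 bp), with quartiles at -87 and 212 bp, and the median distance regardless of side was 108 bp. Measured from the 5′ start of the gene instead, the median was 11 bp, on the downstream side, since members at starts inside the gene then count as downstream. The fullest 50-bp bin was the one just upstream of the start, from -50 to 0 bp, which held 3184 members, or 21.5%. Within 100 bp of a start lay 7221 members (48.7%), within 250 bp 9472 (63.9%) and within 500 bp 76.7%. Inside 250 bp, 70.7% of members were upstream. Bidirectional peaks sat closer to their nearest start, with a median distance of 55 bp and 80.3% within 250 bp. By definition they have starts on both strands to be near, and how much of the difference that gives was not tested.

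A second group of members lay further into genes. Of the 3457 members centred over 500 bp from the nearest start, 64.6% were downstream. Another member was nearer to the same start for 2873 of them (83.1%), so most of them stood beside a nearer member. Of the starts with a member within 1 kb, 12341 (66.0%) had 1 member, 5478 (29.3%) had 2, 857 had 3 and 16 had 4. At the starts with 2 members, the median distance between the centres of the 2 was 685.5 bp. No peak centres in the list lay closer than 501 bp, the width of a peak, and the merging of overlapping peaks by the authors allows none closer. Of all members, 44.8% had their centre outside protein-coding transcripts, 27.1% in an intron, 22.3% in a noncoding part of an exon and 5.83% in a coding part.

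Genes of the lists described below show this range, apart from the zinc finger, receptor, keratin and beta-defensin families, which were not searched for extremes. Among the members centred on or next to the start were those of *Rpl3* at 0 bp, *Elavl4* and *Rpl6* (large ribosomal subunit) at -1 bp, and *Atp5d* and *Bdnf* (a neurotrophin) at 2 bp. The most upstream were those of *Kcna1* (a potassium channel) at -996 bp, *Gapdh* (a glycolytic enzyme) at -983 bp and *Dlg4* (the scaffold of excitatory synapses, PSD-95) at -968 bp. The most downstream were those of *Rbfox3* (the neuronal splicing factor NeuN) at 998 bp, *Foxa2* (a forkhead factor of the ventral midbrain) at 996 bp and *Map2* (a dendritic microtubule protein) at 989 bp. Members at 996 to 998 bp are those just inside the 1 kb limit. All of these genes with a far member also had a nearer one, at 3 bp for *Kcna1*, 75 bp for *Gapdh*, -5 bp for *Dlg4*, -138 bp for *Rbfox3*, 49 bp for *Foxa2* and -92 bp for *Map2*.

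**Figure D1:**
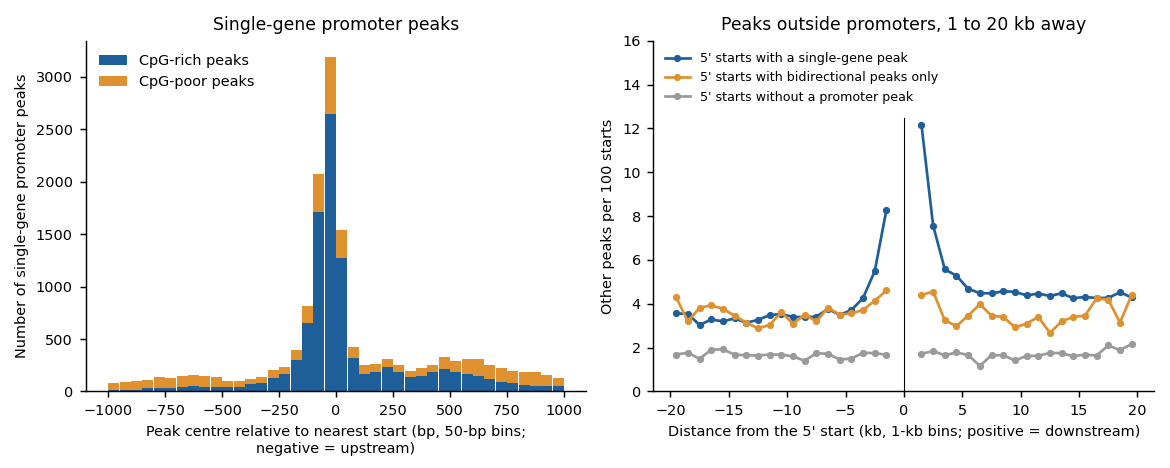
Left, number of single-gene promoter peaks by distance of the peak centre from the nearest start (50-bp bins, negative upstream), stacked for CpG-rich and CpG-poor peaks. The fullest bin, -50 to 0 bp, holds 3184 peaks and is mostly CpG-rich. Right, number of peaks outside promoters per 100 starts in 1-kb bins from 1 to 20 kb on either side of the 5′ start of genes, for 9565 starts with a single-gene promoter peak, 1910 with bidirectional peaks only and 9332 without a promoter peak; the first group has 12.2 peaks per 100 starts in the bin 1 to 2 kb downstream and 8.28 in the bin 1 to 2 kb upstream.

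Genes were counted by the promoter peaks at any of their starts. Of the 20807 autosomal protein-coding genes, 10075 (48.4%, 95% interval 47.7 to 49.1%) had at least 1 member, 1822 (8.76%) had bidirectional peaks only and 8910 (42.8%) had no promoter peak. Together 57.2% of genes had a promoter peak of either kind. These shares, 48.4% for members and 57.2% for either kind, are the background against which the gene lists below are to be read. Nearly all members (14677) served 1 gene, 140 lay at starts of 2 genes, and 9 at starts of 3 or 4. The single-strand rule was read over protein-coding starts, and 2007 members (13.5%) also had a start of another gene type on the opposite strand, most often an antisense RNA (827) or a long intergenic noncoding RNA (337).

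Genes with many starts and long genes had members more often. A member was found at 42.6% of genes with 1 annotated start, 58.6% of those with 3 to 4 starts and 74.1% of those with 5 to 9 starts, and at all 34 genes with 10 or more. By gene length the share went from 16.8% below 2 kb to 78.5% at 200 kb or more. The median length was 26.9 kb for genes with a member, 17.6 kb for genes with bidirectional peaks only and 9.35 kb for genes without a promoter peak. A gene with more starts offers more windows to hold a peak, and how much of these differences that gives was not tested. The counts also include 1128 olfactory and 327 vomeronasal receptor genes, of which 3 and 1 had a member. Their part in the differences was not tested either. The start furthest upstream in the gene, its 5′ start, had a member in 9565 genes (46.0% of all), and 510 genes (5.06% of those with a member) had members only at starts inside the gene.

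Most genes with a member had only 1 (6375, or 63.3%), 2826 had 2, 665 had 3 and 75 had 5 or more. Genes with 2 or more numbered 3700, or 1603 when centres had to lie within 500 bp of a start. *Ank2*, which encodes ankyrin-B, an adaptor between membrane proteins and the cytoskeleton, had the most with 9. It spans 577.39 kb at chr3:126921612-127499001 (mm10) and has 7 annotated starts. The 5 genes with 8 members included *Nrxn2* (a presynaptic adhesion molecule, 125 kb), *Pde4d* (a cAMP phosphodiesterase, 1299 kb), *Rai1* (a chromatin-associated regulator, 94.2 kb) and *Dmtn* (an actin-bundling protein, 34.8 kb). *Rai1* reached its 8 members with 4 annotated starts.

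Most members were CpG-rich by the limits used here. A stretch was called CpG-rich when its GC content was at least 50% and its observed number of CpG was at least 0.6 times the number expected from its C and G content (observed/expected CpG). By that measure 10230 members (69.0%, 95% interval 68.3 to 69.7%) were CpG-rich and 4596 (31.0%) CpG-poor. The median GC content of members was 62.3% and their median observed/expected CpG was 0.749. A stricter alternative asked for at least 55% GC and an observed/expected CpG of at least 0.75. That ratio lies just above the median, so members were not mostly CpG-rich by the stricter limits. Bidirectional peaks were CpG-rich in 82.2%, whereas of the peaks at no protein-coding start only 5.12% were, with a median GC content of 49.5% and a median observed/expected CpG of 0.242. The intervals of these 3 shares do not overlap.

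The share of genes with a member rose with the CpG content of their 5′ start, measured in the 501 bp around it whether or not it had a peak. Of 10562 CpG-rich 5′ starts, 7575 (71.7%) had a member and 1310 (12.4%) had no promoter peak. Of 10245 CpG-poor 5′ starts, 1990 (19.4%) had a member and 78.3% had no promoter peak. In steps of 0.1 in observed/expected CpG, the share with a member was 1.94% below 0.1 (38 of 1963 starts), 23.7% from 0.3 to 0.4, 54.2% from 0.5 to 0.6 and 77.1% at 1.1 and above. With bidirectional peaks included, the last share was 95.5%. At high CpG content, starts with bidirectional peaks only thus took most of the share that members left.

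**Figure D2:**
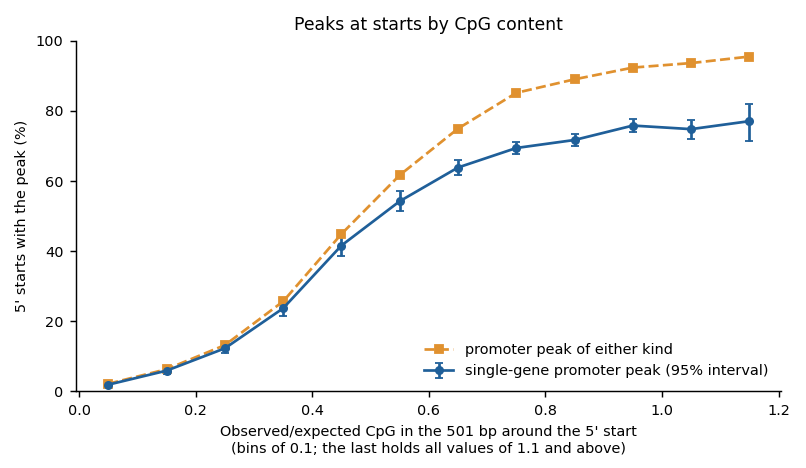
Share of 5′ starts of autosomal protein-coding genes with a single-gene promoter peak (blue, with 95% exact binomial intervals) or with a promoter peak of either kind (orange, dashed), in bins of 0.1 of observed/expected CpG in the 501 bp around the start. The blue share goes from 1.94% in the lowest bin to 77.1% in the highest, where the orange share is 95.5%.

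CpG-rich and CpG-poor members also differed in where they sat. Of CpG-rich members 74.9% were centred within 250 bp of a start, against 39.4% of CpG-poor members. CpG-poor members lay more than 250 bp downstream in 34.4% and more than 250 bp upstream in 26.2%, where the shares of CpG-rich members were 18.4% and 6.65%. Read the other way, 80.9% of members within 250 bp of a start were CpG-rich, against 54.4% of those further downstream and 36.1% of those further upstream. Among the list members with the lowest observed/expected CpG, outside the same large families, were such distant peaks: *Grin1* (the obligatory NMDA receptor subunit) with 0.0648 at 907 bp, *Stmn2* (a neuronal microtubule regulator) with 0.0766 at -456 bp, *Ddc* with 0.0959 at 872 bp and *Cacna1e* (a calcium channel) with 0.0980 at 569 bp. At 1709 genes every member was CpG-poor.

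The motifs searched are short letter strings, and a match is a description of the sequence, not a bound site. They were searched on both strands of the 501 bp of each peak, and 13227 members (89.2%) held at least 1 of 19. No such share is given for other peaks or starts, so it cannot be read as particular to members. Compared with peaks at no protein-coding start, members held the ETS site (CCGGAAGT) 8.50 times as often, in 6.27% against 0.738%. The GC box (GGGCGG) was in 70.1% of members against 15.9%, the NRF1 site (GCATGCGC) in 4.97% against 1.27%, the CRE (TGACGTCA) in 2.97% against 0.822% and the YY1 site (AAGATGGC) in 5.24% against 2.97%. The CCAAT box, here CCAAT followed by C or G and then by A or G, was in 21.7% against 14.8%, and the E-box CACGTG was in 12.3% against 8.28%. Of the motifs described here, only the CArG box can hold another (TATAAA or TAATTA) within its letters. Among the 501-bp windows at all 20807 5′ starts, the shares were 6.17% for the ETS site, 55.3% for the GC box, 4.15% for NRF1, 2.77% for the CRE, 4.91% for YY1, 23.3% for the CCAAT box and 10.4% for CACGTG.

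Other motifs were scarcer in members than in peaks away from starts. The CTCF motif was in 1.34% of members against 6.99%, the NBRE (AAAGGTCA, known for Nr4a factors) in 1.38% against 5.11% and the homeodomain motif (TAATTA) in 3.35% against 8.96%. The forkhead motif (TGTTTAC) was in 3.71% against 8.77%, the E-box CAGATGG, known for proneural factors, in 6.57% against 13.8% and the AP-1 motif (TGACTCA) in 4.92% against 9.45%. In the windows at all 5′ starts, the CTCF motif was in 0.687%, the NBRE in 1.79%, the homeodomain motif in 6.50%, the forkhead motif in 4.10%, CAGATGG in 7.19% and the AP-1 motif in 6.17%.

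Base composition moved with these differences, so the comparison was repeated between CpG-rich peaks of both sets, 10230 members and 1964 peaks at no protein-coding start. There the GC box was in 84.4% of members against 70.6%, the ETS site in 8.08% against 3.72%, the YY1 site in 6.30% against 2.24% and the CCAAT box in 22.8% against 15.8%, with intervals that do not overlap. The CTCF motif stayed scarcer, in 0.899% against 2.70%. The intervals overlapped for the CRE (3.52% against 2.95%) and for the TATA box (6.29% against 6.36%). CACGTG was in 13.5% against 15.2%, with overlapping intervals, so its higher share over all members was not seen among CpG-rich peaks. Between CpG-poor peaks of both sets, the GC box (38.2% against 12.9%), the ETS site (2.24% against 0.577%), the CRE (1.74% against 0.707%), the CCAAT box (19.3% against 14.8%) and CACGTG (9.57% against 7.91%) were commoner in members, and the CTCF motif (2.31% against 7.22%) and TATAAA (13.1% against 21.7%) were scarcer, again without overlap of intervals. The YY1 site was in 2.87% against 3.01% of CpG-poor peaks, with overlapping intervals, so its higher share was seen among CpG-rich peaks and not among CpG-poor ones.

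Motifs kept characteristic places relative to the start. Counted in 20-bp bins around the starts of the 9472 members centred within 250 bp, the CCAAT box was densest from -60 to -40 bp, with 46.1 matches per 1000 starts. The GC box was densest from -20 to 0 bp, with 203 matches per 1000 starts, and the NRF1 site and the CRE were densest in the same bin, with 11.7 and 6.86. The ETS site was densest from 0 to 20 bp, with 17.1, and the YY1 site from 20 to 40 bp, inside the transcript, with 14.6. At 5′ starts without a promoter peak, the CCAAT box was densest from -80 to -60 bp with 27.2 matches per 1000 starts and the GC box from -60 to -40 bp with 61.2, so both kept a place upstream there too. No bin at those starts held more than 2.04 ETS, 2.25 YY1, 2.46 NRF1 or 2.36 CRE matches per 1000 starts. The homeodomain motif ran the other way, with 10.4 matches per 1000 of those starts from -100 to -80 bp.

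**Figure D3:**
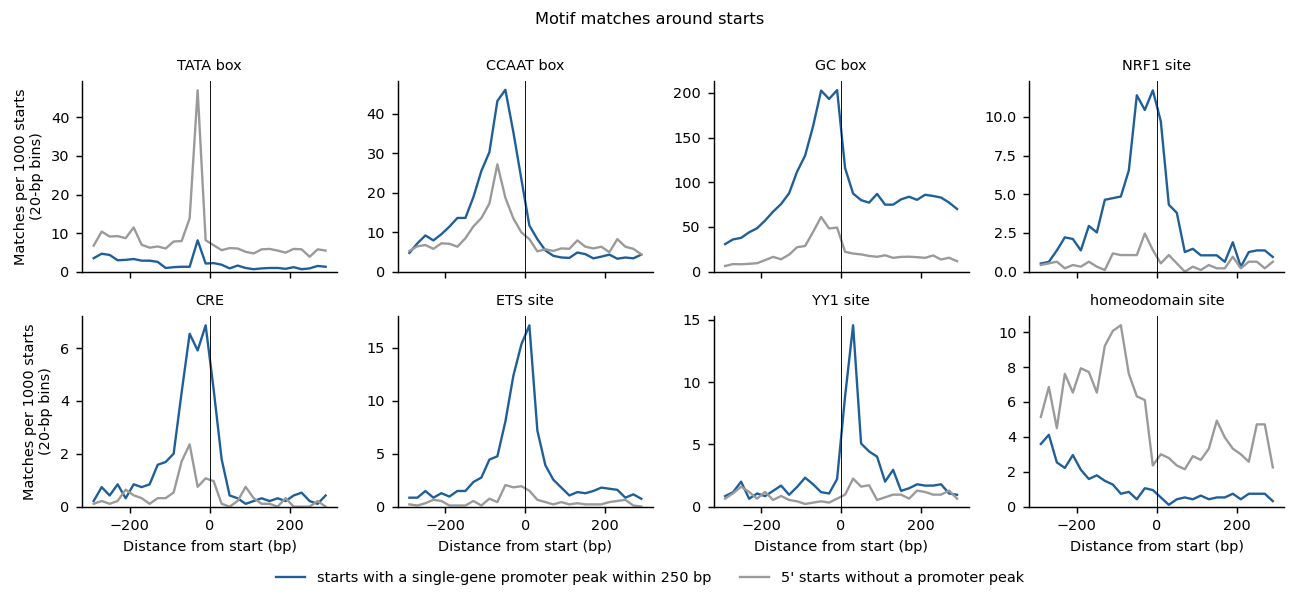
Motif matches per 1000 starts in 20-bp bins from 300 bp upstream to 300 bp downstream, for starts of 9472 single-gene promoter peaks centred within 250 bp (blue) and for 9332 5′ starts without a promoter peak (grey); vertical scales differ between panels. The TATA box spikes from -40 to -20 bp, at 8.13 per 1000 for starts with a peak and 47.0 for starts without, whereas the YY1 site reaches 14.6 from 20 to 40 bp at starts with a peak and 2.25 at starts without.

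The TATA box was rare at members. Searched on the strand of the gene in the window 20 to 40 bp upstream of a start, TATAAA was found at a start of 164 members (1.11%), in 1.09% of CpG-rich and 1.13% of CpG-poor members. These members shared 137 starts of 118 genes. At 5′ starts, 77 of those with a member (0.805%) and 405 of those without a promoter peak (4.34%) had the box, and 15.9% of all 5′ starts with the box had a member. Among list genes with such a member were *Fos* and *Junb* (immediate early transcription factors), *Nefl* and *Nefm* (neurofilaments of large axons), *Elavl3* (a neuronal RNA-binding protein), *Polr2a* (the large subunit of RNA polymerase II), *Rps2* (small ribosomal subunit) and the histone genes *Hist1h1a*, *Hist1h3a* and *Hist1h4j*. TATAAA anywhere in the peak was in 8.40% of members, against 20.9% of peaks at no protein-coding start and 16.2% of windows at all 5′ starts.

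Genes that define DNs had single-gene promoter peaks almost throughout. Of 26 dopamine neuron genes, 24 (92.3%, interval 74.9 to 99.1%) had a member, beside 48.4% of all genes, and 43 members lay at them. Since the DN cluster was chosen by the accessibility of *Th* and checked with other markers, this count is not independent of how the nuclei were picked. The 2 genes without a promoter peak were *Chrna6* (a nicotinic receptor subunit of DNs), whose nearest peak was centred 1991 bp downstream of its start, and *Sox6* (a transcription factor of some DNs), whose nearest peak was 1661 bp upstream. Members of the list were centred within 250 bp of a start in 55.8% (39.9 to 70.9%) and were CpG-rich in 58.1% (25 of 43, 42.1 to 73.0%). These intervals contain the shares among all members, 63.9% and 69.0%.

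The genes of dopamine synthesis and transport had members of both kinds of CpG content. *Th* had 1 member, centred at -82 bp from the start at chr7:142900014, with an observed/expected CpG of 0.431. An annotated *Th* transcript starts 31114 bp further upstream, and no member lay at that start. *Ddc* likewise had its members at a start 7736 bp inside the longest transcript, at -71 and 872 bp, and another 16 peaks in its body. *Gch1*, which makes the cofactor of *Th*, had a CpG-rich member at -55 bp. *Slc18a2* had a CpG-poor member at 6 bp with an observed/expected CpG of 0.562, just under the limit of 0.6. *Slc6a3* had a CpG-rich member at -20 bp and a CpG-poor member at -539 bp. *Slc10a4*, a vesicular transporter of monoaminergic and cholinergic neurons, had a CpG-rich member at 10 bp, and *Aldh1a1*, an enzyme of retinaldehyde and dopamine metabolism, had a member at an inner start (-94 bp) with an observed/expected CpG of 0.107. The peaks of *Th*, *Slc18a2* and *Nr4a2* held the CRE, 3 of the 43 members of the list, or 6.98% (1.46 to 19.1%), where 2.97% of all members held it.

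Several transcription factors that specify or maintain DNs had more than 1 member. *Foxa2* had 4, at 49 bp from its 5′ start and at -442, 344 and 996 bp from an inner start. *Nr4a2* (Nurr1, an orphan nuclear receptor) had 3, at -161 bp from its 5′ start and at 21 and -151 bp from inner starts. *En1* had members at -155 and 799 bp, *Foxa1* at 106 and -882 bp, *Lmx1a* at -269 and 302 bp, and *Lmx1b* at -702 and 875 bp. *Lmx1b* had no member within 250 bp of its start, though both of its members were CpG-rich. Single members were found at *En2* (-96 bp) and *Pitx3* (-222 bp). *Otx2* had only CpG-poor members, at -54 and -741 bp from inner starts.

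Receptors, channels and other proteins of DNs completed the list. *Drd2*, the dopamine autoreceptor, had a member at -302 bp, and *Ret*, the receptor kinase for neurotrophic factors, had members at -267 and 379 bp from an inner start. Its coreceptor *Gfra1* had 4 members, at -370, -20, 151 and 694 bp. *Kcnj6*, the potassium channel GIRK2, had members at -49 and 499 bp and another 25 peaks in its body. *Calb1* (the calcium buffer calbindin) had a member at -22 bp and *Chrna4* (a nicotinic receptor subunit) had members at 33 and 455 bp. In all, 14 of the 24 genes with a member had 2 or more, where 36.7% of all genes with a member did. The counts were 15 of 20 pan-neuronal, 13 of 20 immediate early and 12 of 16 common reference genes with a member. In the last list 1 gene name counts under 2 identifiers. In 7 dopamine neuron genes, among them *Aldh1a1*, *Ddc*, *Otx2*, *Slc18a2* and *Th*, all members were CpG-poor.

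**Figure D4:**
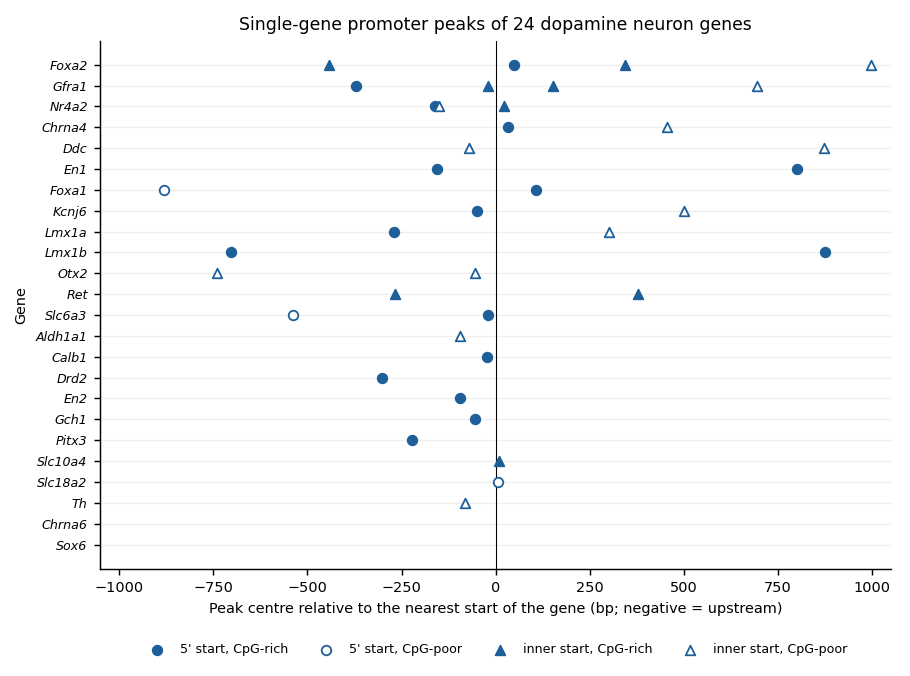
Position of each of 40 single-gene promoter peaks of 24 of the dopamine neuron genes (1 row a gene) relative to the nearest start of the gene (bp, negative upstream). Circles are peaks at the 5′ start and triangles peaks at a start inside the gene; filled symbols are CpG-rich and open symbols CpG-poor. *Foxa2* and *Gfra1* have 4 peaks each, and the rows of *Chrna6* and *Sox6* are empty.

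Neuronal genes in general also had members. All 20 pan-neuronal genes had one (interval 83.2 to 100%), with 46 members between them, and 26 of these members (56.5%) were centred within 250 bp of a start. Only 19 of the 46 (41.3%, 27.0 to 56.8%) were CpG-rich, beside 69.0% of all members. Counted by gene, 15 of 20 had a CpG-rich member, where 83.0% of all genes with a member did, and *Dlg4* and *Elavl4* held many of the CpG-poor peaks. *Dlg4* had 6 members, with observed/expected CpG from 0.118 to 0.461, and 8 annotated starts. *Elavl4* had 5, and the one centred at -1 bp, whose sequence is printed above, had an observed/expected CpG of 0.340. *Syt1* (the calcium sensor of transmitter release) had members at -8, -691 and 935 bp, and *Uchl1* (a neuronal deubiquitinase) at 43, -743 and 687 bp. *Rbfox3* had another 40 peaks in its body, the most in this list.

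Immediate early genes, which neurons switch on within minutes of activity, all had members as well (20 of 20), with 42 members in total. Of these 33 (78.6%, 63.2 to 89.7%) were CpG-rich, an interval that contains the 69.0% of all members. *Bdnf*, a gene with alternative promoters and 9 annotated starts, had 6 members, which ranged from -448 to 544 bp from their nearest starts, and 4 of them were CpG-rich. *Dusp1* (a phosphatase of MAP kinases) had 5 members, *Fosl2* and *Klf10* 3 each, and *Fos* 1 at -65 bp. *Arc* (a cytoskeletal protein of active synapses) had a CpG-rich member at -74 bp and a CpG-poor one at -909 bp, and *Npas4* (an activity-dependent transcription factor) had members at 204 and -638 bp. The CArG box, known for serum response factor, was in 7 of the 42 members (16.7%, interval 6.97 to 31.4%), at *Arc*, *Bdnf*, *Egr2*, *Egr3*, *Fos*, *Fosb* and *Npas4*. It was in 1.71% of all members and in 1.93% of the windows at all 5′ starts. The CRE was in 4 of the 42, at *Btg2*, *Dusp1*, *Ier2* and *Jund*.

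Lists of genes for other transmitters and other cells were small, and most of their counts cannot be set apart from the background. The list of GABA and glutamate transmitter genes also holds the transcription factors *Gata2*, *Gata3* and *Tal1*, which had no member. Of its 11 genes 4 had one, among them *Slc32a1* and *Slc17a6* (the vesicular transporters of GABA and of glutamate in the midbrain). *Gad1* and *Gad2*, which make GABA, had none, with the nearest peak 30559 and 99801 bp away. Of 10 oligodendrocyte genes 3 had a member (*Cnp*, *Myrf* and *Pdgfra*), of 8 astrocyte genes 2 (*Aldoc* and *Slc1a2*), of 8 microglia genes 1 (*C1qa*, at 501 bp) and of 6 endothelial genes 1 (*Kdr*). Of 10 genes of pyramidal neurons 5 had one, *Tbr1*, *Bcl11b* and *Wfs1* among them. None of 8 pluripotency genes had one, which allows a share of up to 36.9%, and of 22 genes of liver, muscle, blood, pancreas and testis 2 did (*Apoa1* and *Krt10*). The intervals of the transmitter (10.9 to 69.2%), oligodendrocyte (6.67 to 65.2%), astrocyte (3.19 to 65.1%), microglia (0.316 to 52.7%), endothelial (0.421 to 64.1%) and pyramidal neuron (18.7 to 81.3%) lists all contain the background of 48.4%, so their counts are no result about these genes.

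**Figure D5:**
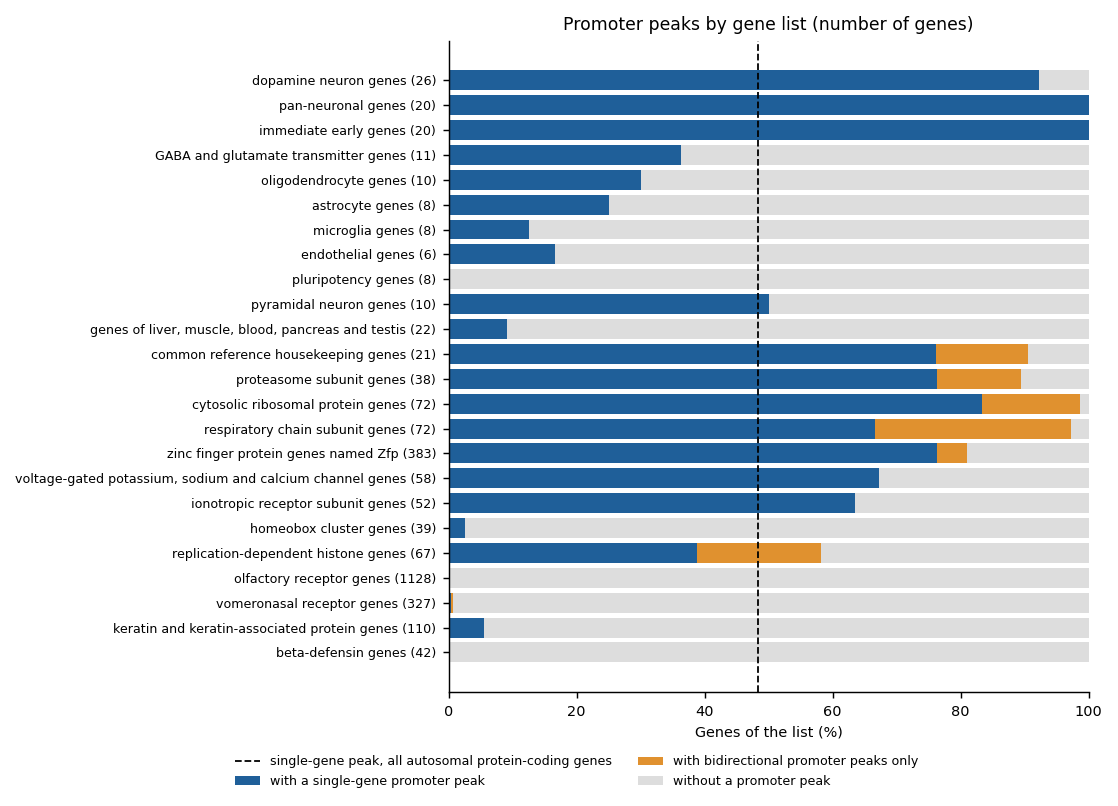
Share of the genes of each list with a single-gene promoter peak (blue), with bidirectional promoter peaks only (orange) or without a promoter peak (grey); the number of genes stands after each list name, and the dashed line marks the 48.4% of all autosomal protein-coding genes with a single-gene promoter peak. The dopamine neuron, pan-neuronal and immediate early lists reach 92.3 to 100%, and the olfactory receptor list 0.266%.

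Nearly all genes of the basic machinery of cells had a promoter peak of one kind or the other. Of 72 cytosolic ribosomal protein genes 60 (83.3%, interval 72.7 to 91.1%) had a member and another 11 had bidirectional peaks only, which left *Rps25* without a promoter peak. Of 72 genes for subunits of the respiratory chain and ATP synthase 48 (66.7%, 54.6 to 77.3%) had a member and 22 had bidirectional peaks only, which left *Atp5g1* and *Ndufa6*. Of 38 proteasome subunit genes 29 had a member and 5 had bidirectional peaks only. Members of these lists were centred within 250 bp of a start in 78.9% (ribosomal), 70.3% (respiratory) and 71.8% (proteasome). Their median distances regardless of side were 57, 52.5 and 56 bp, against 108 bp over all members. Of 21 common reference genes 16 had a member, where 1 gene name under 2 identifiers, both with a member, counts as 2. Among the 16 was *Gapdh* with 4 members. Those at 75 and 880 bp from an inner start were CpG-rich, and those at -142 and -983 bp from the 5′ start CpG-poor.

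Motif shares varied between the lists. The ETS site was in 15 of 76 members of ribosomal protein genes (19.7%, 11.5 to 30.5%), the NRF1 site in 10 of 64 members of respiratory genes (15.6%, 7.76 to 26.9%) and the YY1 site in 12 of those 64 (18.8%, 10.1 to 30.5%). Over all members the shares were 6.27%, 4.97% and 5.24%. Members were CpG-rich in 81.6% (ribosomal) and 78.1% (respiratory), against 69.0% over all members. The motif shares were not adjusted for this. None of the 43 members of dopamine neuron genes held an NRF1 or a YY1 site, which at this number of peaks allows a share of up to 8.22%.

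Histone genes used in DNA replication often had TATAAA in their peaks. Of 67 such genes 26 (38.8%, 27.1 to 51.5%) had a member and 13 had bidirectional peaks only. Many of them lie as divergent pairs in clusters. TATAAA was in 18 of their 37 members (48.6%, 31.9 to 65.6%), where 8.40% of all members held it, and the CCAAT box was in 19 of 37 (51.4%) against 21.7%. Of the 37, 16 were CpG-rich. Their median observed/expected CpG was 0.837 and their median GC content 49.5%, so it was the limit on GC content that many missed. As background, these histone genes are transcribed mainly in dividing cells, and DNs do not divide.

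Gene families differed widely in the share of genes with a member. Of 383 zinc finger protein genes named *Zfp*, 292 (76.2%, 71.7 to 80.4%) had a member, and 75.1% of their 386 members were centred within 250 bp of a start. Of 58 genes for voltage-gated potassium, sodium and calcium channels 39 (67.2%, 53.7 to 79.0%) had a member, led by *Cacna1c* (the L-type calcium channel Cav1.2) with 7, and *Cacna1a* (the P/Q-type channel) had 53 further peaks in its body. Of 52 subunits of ionotropic receptors 33 (63.5%, 49.0 to 76.4%) had one, with 4 members at *Grin2a* (an NMDA receptor subunit). In contrast 1 of 39 clustered homeobox genes had a member, *Hoxc10* at -34 bp, and 3 of 1128 olfactory receptor genes did (0.266%, 0.0549 to 0.775%): *Olfr1350* at 32 bp, *Olfr65* at -28 bp and *Olfr94* at 589 bp. The peak at *Olfr94* was CpG-rich, unlike those at the other two. Of 327 vomeronasal receptor genes *Vmn1r44* had a member and *Vmn1r4* a bidirectional peak, of 110 keratin and keratin-associated protein genes 6 had a member, 3 of these 6 peaks at a start with TATAAA 20 to 40 bp upstream, and of 42 beta-defensin genes none did, which allows a share of up to 8.41%. Over the 24 lists together, 632 of 2549 genes had a member (24.8%), a share set largely by the receptor families.

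Further peaks lay around single-gene promoters, and more of them downstream of the start than upstream. Downstream here runs in the direction of the gene whatever its length, and so past the end of short genes. Counted from 1 to 20 kb from the 9565 5′ starts with a member, there were 6941 peaks at no protein-coding start upstream and 9272 downstream, 0.726 and 0.969 per start, a ratio of 1.34 (95% interval 1.29 to 1.38). The excess was greatest next to the promoter: 12.2 peaks per 100 starts from 1 to 2 kb downstream, against 8.28 from 1 to 2 kb upstream. Around the 1910 5′ starts with bidirectional peaks only, the ratio was 0.990, and around the 9332 without a promoter peak it was 1.02, with 0.317 peaks upstream and 0.324 downstream per start. Starts of neighbouring genes can share the same peaks, so these counts are not independent of each other.

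Gene bodies behind a single-gene promoter peak also held more peaks, at every length. Among genes shorter than 10 kb, 31.2% of those with a member had another peak in the body, against 5.48% of those without a promoter peak. The shares were 43.3% against 22.3% from 10 to 50 kb, 69.9% against 51.0% from 50 to 200 kb and 94.2% against 81.4% at 200 kb or more. Per 100 kb of gene, genes with a member had 10.3, 4.12, 3.06 and 2.00 body peaks in these classes of rising length, and genes without a promoter peak had 1.52, 1.51, 1.33 and 0.931. Peaks per length thus went down with gene length in both groups, and less so in genes without a promoter peak.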

How the data were processed

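snATAC-seq of the VTA was analysed from 1 list of accessible peaks for DNs, pooled over 2 libraries. The authors mapped reads to mm10 with Cell Ranger, removed doublets and nuclei of low quality and clustered nuclei with ArchR, and chose the DN cluster by gene scores. Peaks reproduced between pseudobulk replicates were merged by the authors with ArchR's iterative overlap procedure. The deposited list holds positions only, with no score, height, p-value or count. Reads and coverage tracks of the study were not analysed here. Every end minus start was 500, and no neighbouring starts lay closer than 501 bp, so starts were read as counted from 1 and each peak as 501 bp. The plan had assumed that starts are counted from 0, and that reading became the alternative.

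Members and gene lists were chosen with earlier results of these data known. Starts came from GENCODE M21 basic transcripts and sequence from GRCm38. The 5′ start of a gene is its start furthest upstream. Named genes were the list members, the genes with the most members, and the list genes at the extremes of position and CpG content. A few genes of the lists count in the totals but are not reported by name here. No test between groups was possible with 1 pooled list. Intervals are 95% exact binomial (Clopper-Pearson) and cover counting error only. The ratio of downstream to upstream peaks has an interval of the same kind, and medians have order-statistic intervals. The procedures were tested on simulated peaks. Scripts ran in Python 3.11.15 (scipy 1.17.1, pandas 2.3.3, numpy 2.4.6), and figures were drawn with matplotlib 3.10.9. Alternatives varied the distance limit, annotation, single-strand rule, way of assigning a peak, CpG limits and sets of genes.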

Additional observations from a re-analysis of the deposited data

How the results depend on the processing

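No paired analysis was possible because both DN libraries were pooled in the 1 list used here, and no replicate could be left out for the same reason. Counts within 1.5 times the main count, and other values inside the main value's 95% interval, were taken as not moved. Of 143 alternative values 102 were not moved, 40 moved and 1 changed sign. The number of members, 14826, was 11714 with a limit of 500 bp, 12819 with starts of every gene type in the single-strand rule, 17413 with all transcripts, 15712 by overlap and 14824 with starts counted from 0. The number of genes with a member ranged from 8881 to 10395. The median distance of -19 bp turned to 11 bp when measured from the 5′ start of the gene, since members at starts inside the gene then count as downstream. It was -15 bp for genes with 1 annotated start and -27 bp with a limit of 500 bp, which also lowered the genes with 2 or more members from 3700 to 1603. Restricted to genes with 1 start, 5143 of 5720 members (89.9%) held a motif and 77 (1.35%) a TATA box 20 to 40 bp upstream. Within 250 bp of a start 100 of 9472 members (1.06%) had the TATA box, in place of 164 members, by construction on fewer peaks. The ratio of downstream to upstream peaks went from 1.34 to 1.44 for genes whose neighbours start more than 20 kb away and to 1.23 for genes longer than 20 kb, and the cause was not tested. The list of pyramidal neuron genes fell from 5 to 2 genes and that of microglia genes from 1 to 0 with a limit of 500 bp. Without heights or counts, the list cannot show how strong a peak was or how many nuclei held it.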

Other observations

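Of 10562 CpG-rich 5′ starts, 1310 had no promoter peak, and several of these belong to genes in use in all cells. *Eef2* (the ribosomal translocation factor) had an observed/expected CpG of 1.01 around its start, and its nearest peak was 14730 bp away. For *Ndufa6* the nearest peak was 47047 bp away, for *Atp5g1* 40774 bp, for *Psma7* 17037 bp and for *Rps25* 10920 bp. None of these genes is known for restriction to a cell type.

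The share of genes with a single-gene promoter peak differed between chromosomes, from 39.2% on chromosome 14 and 39.5% on chromosome 7 to 56.0% on chromosome 12. Without olfactory and vomeronasal receptor genes the share was 49.0% on chromosome 7 and 41.2% on chromosome 14, and the highest was 57.2% on chromosome 10.

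Among the 6 keratin and keratin-associated genes with a member, *Krt10* was CpG-rich with an observed/expected CpG of 1.16 at 34 bp, and *Krt222*, a keratin-like gene, had a member at -8 bp with 0.435. The members at *Krtap10-10*, *Krtap16-1*, *Krtap24-1* and *Krt77* had 0.120 to 0.232.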
